A study of Mus musculus with 2 samples.

Results

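The replication-dependent histone genes are the genes for the core histones H2A, H2B, H3 and H4 and the linker histone H1 that are used to package newly copied DNA. They were taken here as the protein-coding genes whose symbol begins with Hist1h, Hist2h, Hist3h or Hist4h, which gave 67 genes of 55536 gene rows, or of 21901 protein-coding genes. The choice used symbols only and no measured value. By class they were 6 H1, 18 H2A, 18 H2B, 12 H3 and 13 H4 genes. In the mouse genome they lie in the Hist1 cluster on chromosome 13 (54 genes), the Hist2 cluster on chromosome 3 (10 genes), the Hist3 cluster on chromosome 11 (2 genes) and as the single gene Hist4h4 on chromosome 6.

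The RNA came from macrophages grown from bone marrow of C57BL/6J mice and held for 300 min with 100 ng/mL of a stimulus, which the description calls Lipid A and the treatment field calls lipoprotein A. Both libraries, biological replicates 1 and 2, belong to that 1 group; they have separate biosample records and 1 donor record, and the sex and age of the mice were not collected. No untreated library is used here, so no value below is a response to that agent, and differences between replicates 1 and 2 may be partly technical. The assay is named polyA plus RNA-seq, whole-cell RNA read after selection for poly(A) tails, although the molecule field reads total RNA.

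Most replication-dependent histone mRNAs are the exception to the rule that animal mRNAs end in a poly(A) tail. They are cut a few bases after a conserved stem-loop, which the stem-loop binding protein SLBP holds while the U7 snRNP pairs downstream, and they usually have no introns and are made mainly in S phase. Replacement histones such as H3.3 come from genes with introns and poly(A) tails and are made in dividing and resting cells alike, and some replication-dependent genes are also known to yield longer, polyadenylated mRNAs in cells that have stopped dividing. Selection for poly(A) leaves out most RNA that ends at the stem-loop, so the values below are levels in polyadenylated or otherwise retained RNA, and not the cells' total histone mRNA.

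The stem-loops and poly(A) signals of the genes on which the results turn are shown first, because they mark the ways an annotated histone transcript can end. Each window is at most 30 bases of the sense strand, cut from the GENCODE M21 transcript models (GRCm38), with the stem-loop match in capitals.
Hist1h1c stem-loop: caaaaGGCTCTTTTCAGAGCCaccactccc
Hist3h2a stem-loop: ccaaaGGCTCTTTTCAGAGCCacccacaac
Hist2h2aa2 stem-loop: aaaaaGGCTCTTTTCAGAGCCacccactga
Hist2h2aa1 stem-loop: aaaaaGGCTCTTTTCAGAGCCacccactga
Hist1h2ap stem-loop: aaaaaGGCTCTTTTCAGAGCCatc
Hist1h4i stem-loop: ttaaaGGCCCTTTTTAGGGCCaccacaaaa
In Hist1h2ap the model stops 3 bases after the stem-loop, and in Hist2h2aa1 and Hist2h2aa2 it stops 35 bases after it. In Hist1h4i the model runs on for 330 bases, in Hist1h1c for 840 bases and in Hist3h2a for 1643 bases. These last 3 models end in a window with a poly(A) signal, AATAAA or its variant ATTAAA, shown in capitals.
Hist1h1c poly(A) signal: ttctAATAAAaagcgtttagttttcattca
Hist3h2a poly(A) signal: tgcccAATAAAataagagtacgtgtataac
Hist1h4i poly(A) signal: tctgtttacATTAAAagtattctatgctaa

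The consensus histone stem-loop, with the paired ends of its stem and the core of its loop fixed and the other positions free, was searched on the sense strand. It was found in a transcript of 46 of the 67 genes, against 90 of 21834 other protein-coding genes (0.412%). Among the models that lead each gene, 25 carried the form seen above in Hist1h1c, in genes of classes H1, H2A, H2B and H3. All 12 H4 matches had other letters in the stem or loop, which were in no gene of another class. A match describes letters in an annotated model, and 19 of the 67 models have no match and at most 48 bases of 3' UTR; 15 of these have no 3' UTR, so that a stem-loop after the coding sequence could not be seen in them.

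Of the 67 genes, 7 reached 1 TPM in both libraries, against 9338 of 21901 protein-coding genes (42.6%). TPM is a level per transcript length, scaled to the same total in each library. The 7 genes were Hist1h2bc, Hist2h2aa2, Hist1h1c, Hist3h2a, Hist2h2aa1, Hist1h4i and Hist1h2ap, so 4 of them encode H2A and 1 each encode H2B, H1 and H4. They held 96.3% of the 67 genes' summed TPM in replicate 1 and 95.9% in replicate 2. The median of the 67 genes was 0 TPM in both libraries, while the median protein-coding gene stood at 0.32 TPM in replicate 1 and 0.22 in replicate 2.

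The summed level of the 67 genes was 212.5 TPM in replicate 1 and 224.3 in replicate 2, a mean of 218 ± 8.34 (SD, n = 2). It rested on 4318 reads in replicate 1 and 9002 reads in replicate 2; the genes held 0.0213% of all TPM in replicate 1 and 0.0224% in replicate 2. The libraries held 38078399 and 63705317 estimated counts, so a level in replicate 2 rests on more reads. The 5 highest genes took 94.3% of the histone reads in replicate 1 and 94.5% in replicate 2. In both libraries the pool of histone reads was therefore the output of a handful of the 67 genes.

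**Figure D1:**
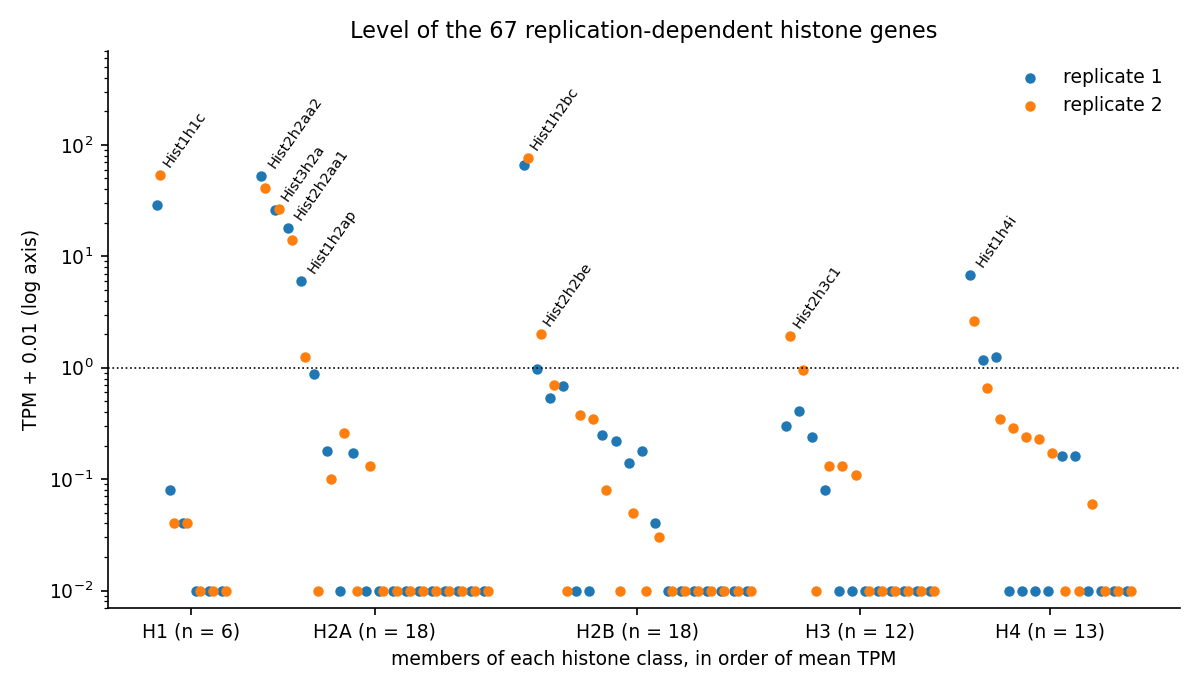
TPM plus 0.01 on a log axis for each of the 67 genes in replicate 1 (blue) and replicate 2 (orange), by histone class and in order of mean TPM; the dotted line is 1 TPM. The 7 genes above the line in both libraries and 4 more above it in 1 library are followed by a long row at or near 0.

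Hist1h2bc, an H2B gene, was the highest, with 66.3 TPM in replicate 1 and 75.7 in replicate 2, from 1457 and 2835 estimated counts. It ranked 1698 of 21901 protein-coding genes by mean TPM. Its model differs from the textbook histone gene. It runs over chr13:23684199-23692908 on the plus strand of GRCm38 and has 2 exons, with the coding sequence wholly in the first and an intron of 7554 bases before a second exon of 733 bases. The model of 1156 bases contains no match to the stem-loop and no poly(A) signal in its last 50 bases.

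Hist1h1c encodes H1.2, a linker histone that binds the DNA between nucleosomes. It had 28.95 TPM in replicate 1 and 54.1 in replicate 2, from 929 and 2926 reads on chr13:23738808-23740367 (plus strand). It stood nearly alone in its class, since the 5 other H1 genes together had 9 reads in replicate 1 and 10 reads in replicate 2. Hist1h2bc was above Hist1h1c by 2.29-fold in replicate 1 and by 1.40-fold in replicate 2, so the order of the 2 genes was the same while the distance was not.

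Hist3h2a, an H2A gene of the small Hist3 cluster, had 25.9 TPM in replicate 1 and 26.6 in replicate 2 (1213 and 2078 counts). Its mean of 26.3 ± 0.45 TPM (SD, n = 2) had the smallest relative spread of the 7 genes. The model of 2146 bases, chr11:58954685-58956830 on the plus strand, overlaps the annotated ubiquitin ligase gene Trim17, which stood at 0.32 TPM in replicate 1 and 0.21 in replicate 2. The other gene of that cluster, Hist3h2ba, had 2 reads in replicate 1 and 1 read in replicate 2.

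Hist2h2aa1 and Hist2h2aa2 are H2A genes on opposite strands of chromosome 3, at chr3:96245497-96246082 on the plus strand and chr3:96239749-96240276 on the minus strand. None of the 50-base stretches of either model is unique to it among the annotated transcripts of all genes, read on either strand. Overlapping noncoding genes count here, so the measure does not show how much sequence these H2A genes share with each other. Hist2h2aa2 was given 52.6 TPM in replicate 1 and 40.9 in replicate 2, and Hist2h2aa1 was given 17.96 and 13.96 TPM. The second quantification of the same libraries divided them differently, with 25.6 TPM in replicate 1 and 38.0 in replicate 2 for Hist2h2aa2 and 27.9 and 14.01 TPM for Hist2h2aa1. Their sum is the safer measure. It was 70.6 TPM in replicate 1 and 54.9 in replicate 2 by the first quantification, and 53.5 and 52.0 TPM by the second. The reads behind it were 473 and 672 by the first and 479 and 681 by the second, so the counts differed less between the methods than the TPM did.

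These genes held most of the signal of models that end near the stem-loop. Annotated noncoding genes overlap both of them: Gm20632 had 0.44 TPM in replicate 1 and 1.06 in replicate 2, Gm20633 had 0.24 and 0.22 TPM, and Gm20634, which spans Hist2h2aa1 and Hist2h3c1, had 2.65 and 2.27 TPM. Gm20634 held 177 counts in replicate 1 and 254 counts in replicate 2. How far reads of such longer transcripts enter the histone values was not tested.

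The last 2 of the 7 genes were lower and less even. Hist1h4i, an H4 gene at chr13:22040636-22041362 (minus strand), had 6.75 TPM in replicate 1 and 2.60 in replicate 2, from 75.8 and 51.6 counts. Hist1h2ap, an H2A gene at chr13:21833026-21833507 (minus strand), had 6.01 TPM in replicate 1 and 1.24 in replicate 2, from 31.6 and 12.1 counts. Only 6.93% of the 50-base stretches of Hist1h2ap are unique to it, and its model has a longest run of 12 adenines. Whether its reads came from other genes that share those stretches was not tested. Hist1h4i and Hist1h2ap were both higher in replicate 1.

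Next came 5 genes, of which 4 reached 1 TPM in 1 library. Hist2h2be is an H2B gene with 2192 bases of 3' UTR and with every 50-base stretch unique to it. It had 0.96 TPM in replicate 1 and 1.99 in replicate 2 (56 and 194 counts). By the second quantification it had 1.58 and 1.94 TPM (104 and 218 counts), so it passed 1 TPM in both libraries there. Hist2h3c1 was the highest H3 gene by the first quantification, with 0.29 TPM in replicate 1 and 1.92 in replicate 2 (11.1 and 125 counts). By the second it had 0 and 0.395 TPM, below Hist2h3c2 with 0.333 and 1.11 TPM. In replicate 2 the overlapping Gm20634 held 254 counts by the first and 369 by the second, while Hist2h3c1 held 125 and 29.4. Whether reads passed between these genes was not tested. Hist1h4m had 1.16 and 0.65 TPM, Hist1h4h had 1.23 and 0.34 TPM, and Hist2h3c2 had 0.40 and 0.95 TPM in replicates 1 and 2. The estimates of Hist2h3c1 were insecure: none of its 50-base stretches is unique to it, and the deposited posterior SD was 10.7 counts in replicate 1 and 15.7 counts in replicate 2.
Hist2h2be poly(A) signal: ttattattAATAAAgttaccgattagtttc
Hist2h3c1 stem-loop: acaaaGGCTCTTTTCAGAGCCaccacagct
Hist2h3c1 poly(A) signal: taatcccAATAAAaatttaacacactgcta
The models of both genes thus end in AATAAA windows, with 1167 bases after the stem-loop in Hist2h3c1 and no match to the stem-loop in Hist2h2be.

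The remaining genes were nearly silent in this RNA. Outside the 9 highest, 30 genes had some reads, the last 3 named above among them, with mean levels between 0.025 and 0.905 TPM and at most 30.4 counts in a library. Of these 30 genes, 19 were at 0 in 1 of the libraries. The other 28 genes had no count in either library. In the second quantification 8 of the 28 were above 0, at up to 0.334 TPM, and 20 stayed at 0 in both libraries. The 20 were the H1 gene Hist1h1t, the H2A genes Hist1h2aa, Hist1h2ab, Hist1h2ad, Hist1h2af, Hist1h2ag, Hist1h2ah, Hist1h2ak, Hist1h2an and Hist1h2ao, the H2B genes Hist1h2ba, Hist1h2bk, Hist1h2bl, Hist1h2bm, Hist1h2bp and Hist2h2bb, the H3 genes Hist1h3b, Hist1h3g and Hist2h3b, and the H4 gene Hist1h4b. Hist1h1t, Hist1h2aa and Hist1h2ba are known as testis histones. A count of 0 allows up to 3 counts, which for these genes is between 0.109 and 0.998 TPM. That limit covers counting error and leaves out the error in dividing reads among genes. The share of unique stretches ran from 0% in Hist2h2bb and Hist2h3b to 100% in Hist1h1t. In Hist1h2ao it was 6.5%, and the deposited posterior SD was 1.91 counts in replicate 1 and 1.4 counts in replicate 2. The absence is thus at this depth, in polyadenylated RNA and as the quantifications divided the reads.

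By class, H2A and H2B genes made up most of the histone signal. H2A genes summed to 104 TPM in replicate 1 and 83.1 in replicate 2, which was 42.9 ± 8.31% of the 67 genes' TPM (SD, n = 2), and H2B genes to 69.3 and 79.2 TPM, or 34.0 ± 1.93%. H1 genes, in effect Hist1h1c, summed to 29.05 TPM in replicate 1 and 54.2 in replicate 2, or 18.9 ± 7.41%. The 13 H4 genes summed to only 9.44 and 4.53 TPM, or 3.23 ± 1.71%, and the 12 H3 genes to 0.99 and 3.21 TPM, or 0.949 ± 0.683%. The core histones enter the nucleosome in equal numbers, but their replication-dependent genes were far from equal in this RNA: H3 and H4 stood below H2A and H2B in both libraries. By TPM, H2A stood above H2B and H4 above H3 in both libraries. By counts the order was less firm: H3 genes had 21.5 counts in replicate 1 and 167 in replicate 2, H4 genes 89.0 and 74.0, H2A genes 1738 and 2773, and H2B genes 1532 and 3052. Of the H3 sum in replicate 2, Hist2h3c1 alone made up 1.92 TPM. By the second quantification that gene had 0.395 TPM of an H3 sum of 2.18 TPM in replicate 2.

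By cluster, the Hist1 genes summed to 114 TPM in replicate 1 and 138 in replicate 2, or 57.5 ± 5.52% of the total (SD, n = 2), with 4 of 54 genes at 1 TPM in both libraries. The 10 Hist2 genes summed to 72.4 and 59.9 TPM, or 30.4 ± 5.21%, with 2 genes at that level. The 2 Hist3 genes summed to 26.2 and 26.6 TPM, or 12.1 ± 0.31%, nearly all of it Hist3h2a. Hist4h4 had no count in either library. In counts, which weigh long models more, Hist2 took 12.1% and Hist3 took 25.6%, so the order of these 2 clusters depends on whether length is divided out.

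**Figure D2:**
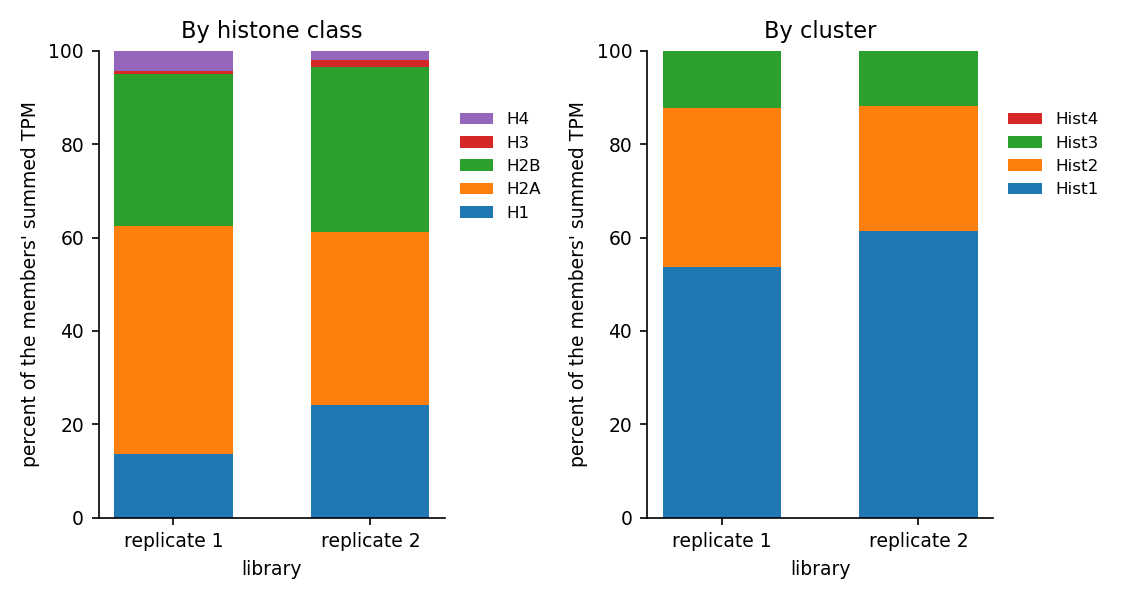
Percent of the 67 genes' summed TPM by histone class (left) and by cluster (right) in replicate 1 and replicate 2. H2A and H2B fill most of both bars, and H3 is a thin band of 0.466% in replicate 1 and 1.43% in replicate 2.

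The end of the annotated model sorted the genes unevenly. None of the 19 genes with no match and so short a 3' UTR (0.68 TPM in all in replicate 1 and 1.31 in replicate 2) reached 1 TPM in both libraries. Of the 23 genes whose model runs over 100 bases past the stem-loop, 3 did, and the group summed to 64.8 TPM in replicate 1 and 87.8 in replicate 2. Of the 22 genes whose model ends within 100 bases of the stem-loop, 3 did as well, with 79.8 and 57.5 TPM in all, and the 3 models with a longer 3' part but no stem-loop match, among them Hist1h2bc, summed to 67.3 and 77.7 TPM. In counts the models that run past the stem-loop led, with 2282 in replicate 1 and 5269 in replicate 2 against 520 and 695 for models that end near it. Genes with a poly(A) signal in the last 50 bases had a median of 0.24 TPM in replicate 1 and 0.05 in replicate 2, and 3 of these 15 genes reached 1 TPM in both libraries, against medians of 0 and 4 of 52 genes among those without. High levels were thus found at both long and short models, and the annotation does not say where the reads themselves ended.

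**Figure D3:**
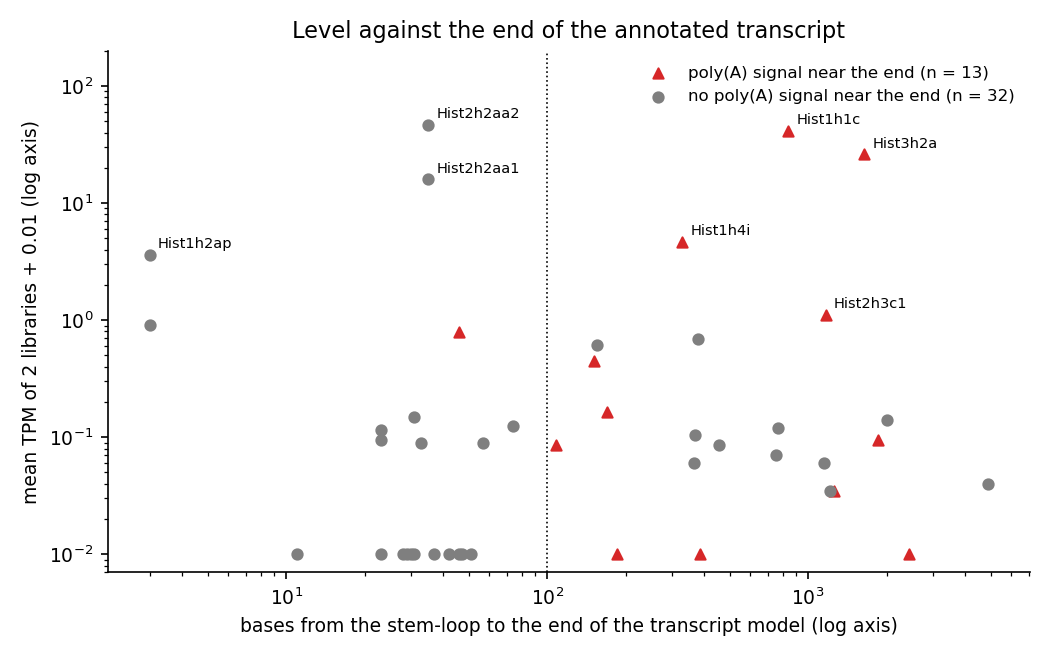
Mean TPM of both libraries plus 0.01 against the number of bases between the stem-loop and the end of the leading transcript model, for the 45 genes with a match in that model; both axes are log, the dotted line is 100 bases, and triangles have a poly(A) signal near the end. High genes lie on both sides of the line, Hist2h2aa2 at 35 bases and Hist1h1c at 840 bases.

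Many H2A and H2B genes lie head to head and share the stretch between their starts. There were 12 such pairs within 500 bases, each of 1 H2A and 1 H2B gene, with gaps of 175 to 305 bases. In the pair of Hist1h2bc and Hist1h2ac, 250 bases apart, Hist1h2bc had 66.3 TPM in replicate 1 and 75.7 in replicate 2 while Hist1h2ac had 0.17 and 0.09 TPM (9.11 and 8.33 counts). The ratio was 390 in replicate 1 and 841 in replicate 2. Thus the highest of the 67 genes had a neighbour, across a shared interval, that was close to 0.

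The pair of Hist2h2be and Hist2h2ac leaned the same way, to the H2B gene, with 0.96 and 1.99 TPM against 0.16 and 0 TPM in replicates 1 and 2. In the pair of Hist1h2ap and Hist1h2br the H2A gene was higher, with 6.01 and 1.24 TPM against 0 and 0.34 TPM. By the first quantification no gene of the other 9 pairs passed 0.87 TPM in a library. By the second, Hist1h2bg, in a pair with Hist1h2ae, had 0.970 TPM in replicate 1 and 1.60 in replicate 2.

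The shared interval of Hist1h2ac and Hist1h2bc is printed from the RefSeq promoter table (GRCm38.p6) as the 300 bases around the start of Hist1h2ac, chr13:23683910-23684209 on the minus strand, because the window also takes in the start of the Hist1h2bc model. Capitals mark matches, on either strand, to the CCAAT box, the TATA box written TATAAA and the histone octamer ATTTGCAT, none of which overlap here.
Hist1h2ac promoter: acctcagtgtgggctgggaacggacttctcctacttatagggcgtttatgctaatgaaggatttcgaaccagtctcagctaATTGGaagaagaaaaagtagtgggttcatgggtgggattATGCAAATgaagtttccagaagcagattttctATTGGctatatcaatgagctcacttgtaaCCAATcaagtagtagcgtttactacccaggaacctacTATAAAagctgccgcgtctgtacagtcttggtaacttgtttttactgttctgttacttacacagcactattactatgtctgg
Such letters are common to the family. Of the 62 genes with a promoter in that table, 53 (85.5%) had CCAAT or its reverse complement ATTGG, against 37.4% of 32851 promoters. TATAAA or TTTATA was in 35 (56.5%), against 13.6%, and the octamer or ATGCAAAT was in 13 (21%), against 1.74%. The octamer was in 7 of 18 H2A and 6 of 16 H2B promoters and in none of the 28 promoters of the other classes, and CCAAT was in every H1, H2A, H2B and H3 promoter searched but in 3 of 12 H4 promoters. Among the 6 promoters of genes at 1 TPM in both libraries, CCAAT was in 5, TATAAA in 2 and the octamer in 1, so these letters did not set those genes apart. A match is a description of sequence and says nothing of binding.

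The replacement histones were far higher than the replication-dependent genes in the same libraries. The 67 genes summed to 212.5 TPM in replicate 1 and 224.3 in replicate 2, against 1700 and 1232 TPM for 13 replacement genes. The log2 ratio was -2.73 ± 0.38 (SD, n = 2). The sets are unlike, since the 13 cover classes H1, H2A and H3 only. The 67 also hold H2B genes, with 69.3 TPM in replicate 1 and 79.2 in replicate 2, and H4 genes, with 9.44 and 4.53 TPM. These levels are in polyadenylated or otherwise retained RNA. The H3.3 genes H3f3b, with 695 ± 215 TPM, and H3f3a, with 440 ± 116 TPM, led the 13, followed by the macroH2A gene H2afy with 160 ± 27.8 TPM; the oocyte linker histone H1foo was lowest at 0.045 TPM. Of the 13 genes, 9 reached 1 TPM in both libraries, and their median was 6.79 TPM in replicate 1 and 6.59 in replicate 2.

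The balance differed by class. H2afx, counted here with the replacement genes, is known to yield both stem-loop-ended and polyadenylated mRNA. For H3, the 12 replication-dependent genes had 0.99 TPM in replicate 1 and 3.21 in replicate 2, against 1377 and 911 TPM for 4 replacement genes, a log2 ratio of -9.29 ± 1.62 (SD, n = 2). For H2A, the 18 genes had 104 and 83.1 TPM, against 317 and 311 TPM for 6 replacement genes, a log2 ratio of -1.76 ± 0.21. H1 went the other way: 6 genes had 29.05 TPM in replicate 1 and 54.2 in replicate 2, against 6.83 and 10.4 TPM for 3 replacement genes, a log2 ratio of 2.23 ± 0.21, with Hist1h1c holding most of that class's signal. With 2 libraries no permutation test can pass 0.05, and none was run; the signs were the same in both libraries.

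**Figure D4:**
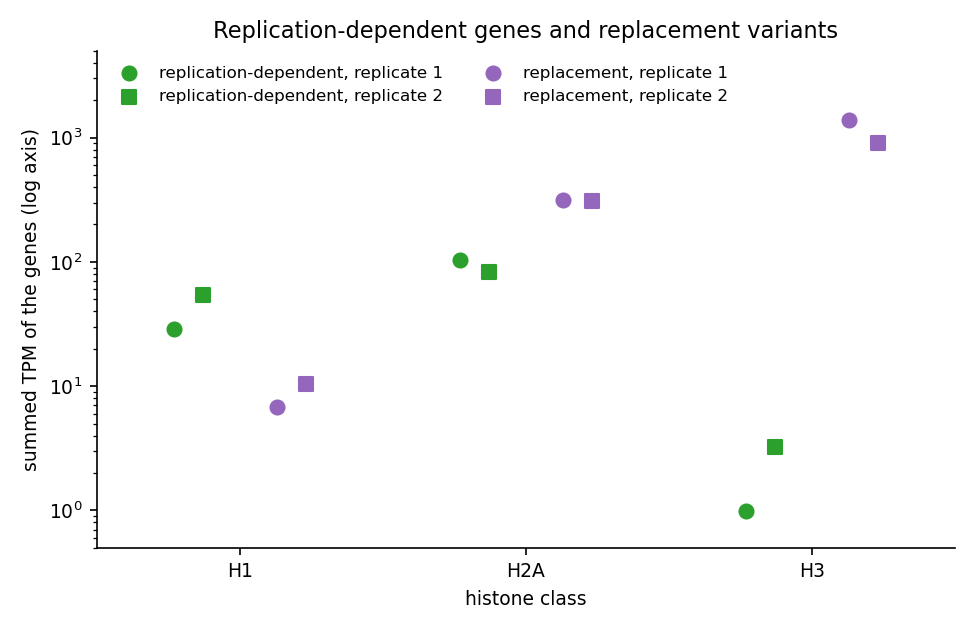
Summed TPM on a log axis of the replication-dependent genes (green) and the replacement genes (purple) of classes H1, H2A and H3, with replicate 1 as circles and replicate 2 as squares. The replication-dependent sum is above the replacement sum for H1 and below it for H2A and H3, in both libraries.

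Genes that make, degrade and handle histone mRNA and protein were mostly present. Of all protein-coding genes, 42.6% reached 1 TPM in both libraries, the level used for each list here. Of 13 genes for processing of histone pre-mRNA, 11 did. Srrt (ARS2, a cap-linked factor) had 60.0 ± 3.88 TPM, Cpsf2 25.9 ± 1.78 TPM and Cstf2 20.1 ± 13.5 TPM (SD, n = 2). Slbp, which binds the stem-loop, had 21.7 TPM in replicate 1 and 17.2 in replicate 2. The genes that fell short were Lsm11, with 0.67 and 0.29 TPM, and Zfp473, lowest at 0.065 TPM. The list for decay of histone mRNA was led by the decapping enzyme gene Dcp2 at 45.6 ± 31.8 TPM. It also held Mif4gd at 32.9 ± 5.48 TPM and Exosc10 at 24.8 ± 4.43 TPM, with Lsm1 lowest at 6.28 ± 0.078 TPM. Being on the list does not show a part in decay. All 7 matched genes of the list reached 1 TPM. Of 9 histone chaperone genes 8 did, with the H3.3 chaperone Daxx at 391 ± 67.01 TPM, Ssrp1 at 41.5 ± 2.496 TPM and Supt16 at 25.8 ± 8.35 TPM, and Chaf1a, a subunit of the replication-coupled chaperone CAF-1, lowest at 0.465 ± 0.092 TPM. Of 19 DNA replication genes 11 did, with the sliding clamp gene Pcna at 313 ± 58.3 TPM, Mcm6 at 28.3 ± 0.389 TPM, Ccne1 at 14.4 ± 9.28 TPM and Cdc6 lowest at 0.285 ± 0.148 TPM. The medians of that list were 2.89 TPM in replicate 1 and 1.27 in replicate 2.

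Replicate 1 was compared with replicate 2 to see which histone values the libraries shared. The test was a two-sided exact binomial test on counts scaled by edgeR's TMM, adjusted by Benjamini-Hochberg over 12226 genes with enough counts, and it compares these libraries only. A gene was called at an adjusted p under 0.05 and a change of at least 1.5-fold. Of the 67 genes 8 had enough counts, and 4 of the 8 were called, against 33.8% of all genes tested. In 1 of the 8 the level was higher in replicate 1 (18.2% of all genes) and in 3 it was lower (15.6% of all genes). With 8 genes these counts are too small to be read as different from that background.

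Hist1h4i was higher in replicate 1, with a log2 ratio of 1.07 and an adjusted p of 3.66e-05 by the exact binomial test. Hist1h1c was lower in replicate 1 by the same test (log2 ratio -1.09, adjusted p = 1.02e-99), as were Hist2h2be (-1.21, adjusted p = 5.15e-09) and Hist2h3c1 (-2.77, adjusted p = 1.12e-16). Hist1h2bc (-0.40, adjusted p = 1.39e-17) and Hist3h2a (-0.21, adjusted p = 6.71e-05) passed the limit on adjusted p by the same test. They were lower in replicate 1 but were not called, because their changes were below the fold limit. Hist2h2aa2 (0.05, adjusted p = 0.70) and Hist2h2aa1 (0.07, adjusted p = 0.75) passed neither limit and were not called. The test takes rounded estimated counts as observed and leaves out the error in dividing reads among genes. For Hist2h3c1 in replicate 1 the posterior SD of 10.7 counts was nearly as large as its 11.1 counts, so its adjusted p overstates the certainty. Hist1h2bc was called lower in replicate 1, at -0.62, once trends of the ratio with GC content and length were removed. With no filter on low counts 7 of the genes were called, beside 4964 of all genes with a count in either library. The histone genes added were Hist1h2ae and Hist1h2ap, higher in replicate 1, and Hist2h3c2, lower. The number of genes tested in that setting is not given here, so the 7 are not read against a background share. In the second quantification Hist2h2be had a log2 ratio of -0.55 and was not called, while Hist2h2aa2 (-0.66) and Hist2h2aa1 (0.86) were called in opposite directions, and Hist2h3c1 had too few counts to be tested.

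Other genes moved between the same libraries. In the DNA replication list 8 of 17 tested genes were higher in replicate 1, against 18.2% of all genes tested, and 1, Ccne1, was lower, against 15.6%. Neutrophil markers summed to 508 TPM in replicate 1 and 18.7 in replicate 2, with Ly6g at 0 in both and 4 of 4 tested genes higher in replicate 1, against the same 18.2%. Macrophage markers, 10 of 10 at 1 TPM in both libraries, summed to 18225 and 24373 TPM; B cell, erythroid and fibroblast markers summed to at most 1.65 TPM, and among the T cell markers Cd4 had 44.8 TPM in replicate 1 and 79.85 in replicate 2, while Cd3d, Cd3e, Cd3g and Cd8a were at most at 0.12 TPM. The part of these differences in the histone ratios was not tested, and in bulk RNA fewer cells of a type and less RNA per cell cannot be told apart.

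**Figure D5:**
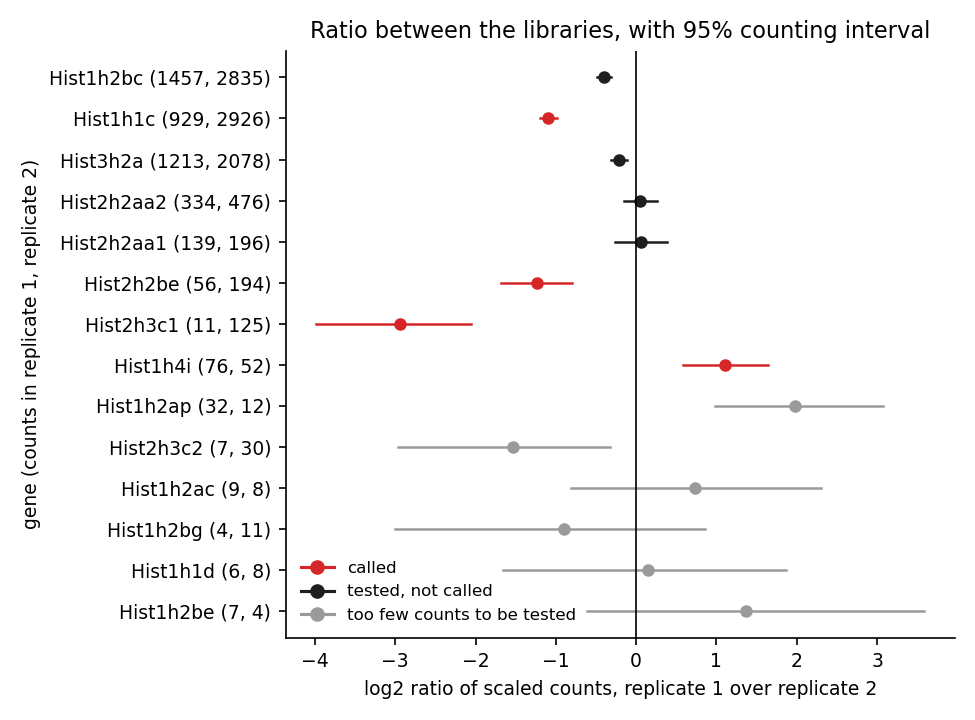
Log2 ratio of scaled counts, replicate 1 over replicate 2, with 95% exact binomial intervals that cover counting error only, for the 14 genes with counts in both libraries and at least 10 in all; counts are given beside each symbol. Red genes were called, black ones were tested and not called, and grey ones had too few counts to be tested; plotted ratios carry no prior count.

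The quantifications gave similar levels for most of the histone genes that could be measured. Of 14 genes at 1 TPM or more in any library by either method, 9 were within 2-fold in both libraries and 7 within 1.5-fold. Hist2h3c1 and Hist1h4k differed by more than 2-fold in both libraries. Hist2h2aa2 differed by more than 2-fold in replicate 1 only, with 52.6 TPM by the first method and 25.6 by the second. Hist1h4h and Hist1h2bg did so in replicate 2 only. Hist2h3c1 had 0.29 TPM in replicate 1 and 1.92 in replicate 2 by the first method, and 0 and 0.395 TPM by the second. Hist1h4k, an H4 gene with a coding-only model of 312 bases, had 0 and 0.23 TPM by the first and 1.01 and 1.14 TPM by the second, on 3.13 and 4.66 counts. Low uniqueness is common among these genes: in 34 of the 67 genes under 50% of the 50-base stretches are unique, and the median is 45.9%. Stretches held by an overlapping gene on either strand also count as shared, and 24 of the genes overlap another gene. The measure is thus not of likeness among histone genes alone.

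Most of the genes have a single model, and few have more than 1 annotated transcript. Of the 5 that do, 2 had a level in both libraries by the first method, Hist1h2be and Hist2h3c1, and in both of these the same transcript led in each library. By the second method 1 of the 5, Hist1h2be, had a level in both libraries, and its leading transcript was also the same. Hist1h2be, an H2B gene picked after its values were seen, shows how models matter: its processed transcript Hist1h2be-203 had 0.882 TPM in replicate 1 and 0.941 in replicate 2 by the second method, on 45.3 and 82.4 counts, and 0 by the first. The coding transcript Hist1h2be-202 had 0.13 and 0.04 TPM by the first method. Reads were thus placed on a noncoding model of this gene by 1 of the methods only.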

How the data were processed

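The deposited tables give, per gene and transcript, estimated counts (expected counts), TPM, FPKM and isoform percent in an RSEM layout, and estimated counts and TPM of a second, kallisto-layout quantification; these are the units per the file headers. The authors mapped to mm10, per the labels; tool versions and the strand setting of counting were not given in the sources used here. The deposited tables follow GENCODE M21, and 26345 rows that are no gene, with 0.132% of counts in replicate 1 and 0.0882% in replicate 2, were left out.

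Expected counts were rounded before the ratio test (R 4.3.3, edgeR 4.0.16: filterByExpr, TMM, prior count 2). The test was checked on simulated Poisson counts only. These hold no spread between cultures and no error in dividing reads among genes, so the check does not cover either. Exact Poisson and binomial intervals and the floor of 3 counts cover counting error only. FPKM served in 1 alternative only. The genes and lists were chosen with earlier results of these data known, and the end groups, the 100-base limit, the 50-base windows, head-to-head pairs, motifs and replacement sums by class after values were seen. Named were the 12 highest genes, the highest of each class and cluster, and those called between libraries. Genes over 2-fold apart between quantifications and those at 0 throughout were named too. Of each list the 3 highest and the lowest were named, with Slbp, and Lsm11 was added after its values were seen. Of the 9 genes in the decay list 7 matched the tables, and Zcchc11 and Zcchc6 did not.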

Additional observations from a re-analysis of the deposited data

How the results depend on the processing

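The log2 ratios of Hist2h2aa2 and Hist2h2aa1 changed sign with no filter on low counts (-0.016 and -0.0006, not called), and that of Hist2h2aa2, which shares all its sequence, was -0.66 in the second quantification; the other ratios kept their sign in every alternative that gave one. At 0.1 TPM in both libraries 13 genes were counted, while without replicate 1 or without replicate 2 there were 9. The second quantification also gave 9 genes at 1 TPM in both libraries, Hist2h2be among them. The share of all protein-coding genes in these settings is not given here. The 42.6% above is for the first quantification at 1 TPM in both libraries, so these counts have no background beside them. The summed level was 196 TPM in the second quantification and 263 TPM over nuclear protein-coding genes. By expected counts H1 held 27.2%, H4 1.44%, Hist2 12.1% and Hist3 25.6%; in the second quantification Hist3 held 12.5% and Hist4 0.0112%. The difference of median log2 level between replication-dependent and replacement genes was -2.94, and -2.81 in the second quantification, -2.42 with FPKM, -3.18 over nuclear protein-coding genes and -9.39 with a pseudocount of 0.01, since the first median is 0. With no filter on low counts 7 of the genes and 4964 of all genes with a count were called. At 2-fold 1613 of all genes were called. The log2 ratio of summed histone counts was -0.50 with TMM and -0.32 on total counts. The leading transcript was the same in 1 gene in the second quantification, the only one with a level in both libraries there. Except where the construction shows it, the cause was not tested. No paired analysis was possible because there is 1 group. Leaving out a replicate was not run for the ratio between libraries, which needs both. Depth limits every gene with few counts.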
